A study of Mus musculus with 18 samples.

Results

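The families miR-297, miR-466, miR-467 as well as miR-669 come for the most part from a repeat-derived miRNA cluster within the mouse gene Sfmbt2. Every array entry with one of these family numbers was taken, with any letter, strand or star suffix, which gave 25 of the 566 mouse entries of the array. An entry was tested if a probe of it passed the scanner software's test against background on each of the 3 arrays of any group, and 20 of the 25 were, among 226 tested entries in all. The cells were Neuro2A, a mouse neuroblastoma line, into which the TATA-binding protein (TBP), fused to green fluorescent protein, was brought by nucleofection with a short (16Q) or an expanded (59Q) glutamine tract. All 6 groups share the cell line, the transfection and the tag, and no untransfected cells are among them, so 16Q-TBP is the control. Total RNA was taken 24, 36 and 60 h later from 3 biological replicates of each construct, and every sample has its own Agilent 1-colour mouse miRNA array. The labels do not say whether the replicates were separate cultures, and the p-values may thus reflect technical spread alone.

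Sfmbt2 encodes a Polycomb-group protein and is an imprinted gene, expressed from the paternal allele in the early embryo and the placenta. One of its introns holds tandem hairpins that arose by amplification in rodents, and the mature miRNAs cut from them form a few families of closely similar sequence. A hairpin yields a duplex of a 5′ and a 3′ strand, and the older names on the array mark the strand thought to be the minor one with a star. The strand that is kept enters Argonaute and pairs with target transcripts mainly through its seed, bases 2 to 8. TBP serves transcription by all nuclear RNA polymerases, and an expanded glutamine tract in it underlies spinocerebellar ataxia type 17.

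In the RefSeq annotation of GRCm38.p6, 82 miRNA genes carry these 4 family numbers, and 72 of them lie inside Sfmbt2 on chromosome 2, where no miRNA gene of any other number is annotated. The other 10 are spread over 7 chromosomes. Of the 72, 29 are miR-669 genes, 24 miR-466, 14 miR-467 and 5 miR-297. Several mature names stand for many gene copies: inside Sfmbt2 there are 12 genes for miR-669a, 10 for miR-467a and 8 for miR-466b. An array entry therefore reports the sum of the copies with that mature sequence, and a signal cannot be assigned to a single hairpin. In bulk RNA, fewer cells with the miRNA and less miRNA per cell cannot be told apart either.

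The RefSeq table of GRCm38.p6 used here holds a mature sequence for 0 of the 31 miRNA names in the 25 entries. Sequences of relatives outside Sfmbt2 are shown instead, and shares given for this table are not shares of all mouse miRNAs. The relatives hold the 2 kinds of mature sequence known from these families, one rich in G and U and one rich in C and A. Whether base composition bears on the measurements below was not tested. Capitals in the mature sequences mark the seed. In the hairpin of Mir297-1, a miR-297a gene copy on chromosome 7 (minus strand), capitals mark the merged run of 3 overlapping copies of UGUGCAUG, searched on the transcribed strand only, a word found in 4 of the 1005 hairpins of the table (0.398%).
Mir297-1 hairpin: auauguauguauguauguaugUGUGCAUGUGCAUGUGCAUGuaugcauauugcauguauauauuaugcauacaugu
miR-466j (chromosome 10): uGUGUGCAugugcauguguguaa
miR-467h (chromosome 9): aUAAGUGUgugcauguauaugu
miR-466i-3p (chromosome 13): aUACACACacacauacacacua
miR-467f (chromosome 11): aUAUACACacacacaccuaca
The first pair of mature relatives is rich in G and U (73.9% and 68.2% of bases) and the second pair in C and A (86.4% and 85.7%). The word ACACAC occurs 4 times, overlaps counted, in each of miR-466i-3p and miR-467f and not in miR-466j or miR-467h, and 0.633% of the 1738 mature sequences in the table hold it. miR-574, a miRNA outside these families, has arms of the same 2 kinds and is used below for comparison.
miR-574-5p (chromosome 5): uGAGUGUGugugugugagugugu
miR-574-3p (chromosome 5): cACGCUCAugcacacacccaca
G or U makes up 91.3% of miR-574-5p, and C or A makes up 81.8% of miR-574-3p, which holds ACACAC 1 time.

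By family, the tested entries were 3 of miR-297, 7 of miR-466, 7 of miR-467 and 3 of miR-669. By the suffix of the name, 7 were star or -3p strands, 2 were 5p strands and 11 had no suffix. A name without a suffix does not say which strand it stands for, so 3′ strands may be among the 11. The star or -3p entries were miR-297b-3p/miR-297c*/miR-297a*, miR-466c-3p/miR-466e-3p/miR-466a-3p/miR-466b-3p, miR-466d-3p, miR-466f-3p, miR-467a*/miR-467d*, miR-467b* and miR-467e*, of which 3 name several miRNAs. The others were miR-297a, miR-297c, miR-466c-5p, miR-466f-5p, miR-466g, miR-466h, miR-467a, miR-467b, miR-467c, miR-467e, miR-669a, miR-669b and miR-669c. The 5 entries not tested were miR-466d-5p and miR-467d, above background on 0 of 18 arrays, miR-297b-5p on 1, miR-466a-5p on 5 and miR-466b-5p on 6.

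Signals are log2 of the processed intensity over the 75th percentile, on that array, of 290 probes above background on all 18 arrays. The share of probe spots above background ran from 19.7% to 37.3% by array, no spot was saturated, and precision is limited by the number of arrays. Of 7 neuronal miRNAs on the array, miR-138 and miR-125b-5p were above background on all 18 arrays and miR-7a on 11. Of the rest, miR-137 was on 3, miR-124 and miR-7b on 1 each and miR-9 on 0. The neuronal identity of the line is thus only partly visible. No marker of blood, liver, endothelium or epithelium was above background on any array. Of 4 muscle markers 3 were on none, and miR-206 was on 8. The arrays 16Q replicates 1 and 2 at 24 h, 59Q replicate 2 at 36 h and 59Q replicate 1 at 60 h stood apart: their median correlation with the other arrays was 0.759 to 0.801, against 0.834 to 0.929 for the other 14. The arrays lay on 3 slides. All 24 h arrays were on the first, with 16Q replicates 1 and 2 of 36 h, and the third held only 59Q replicates 2 and 3 of 60 h.

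The star or -3p strands moved together from array to array more than the 13 other tested cluster entries did. All 7 had their 3 highest values on the same 3 arrays, 16Q replicates 1 and 2 at 24 h and 59Q replicate 2 at 36 h, and 6 of the 13 other entries did. The range of an entry over the 18 arrays was 2.11 to 3.28 log2 units among the 7 (median 3.08) and 0.64 to 2.63 among the 13 (median 1.64). Neither the count nor the ranges were worked out over all 226 tested entries. The 3 arrays were among the 4 that stood apart. The heat map of all tested entries shows this banding by array.

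**Figure D1:**
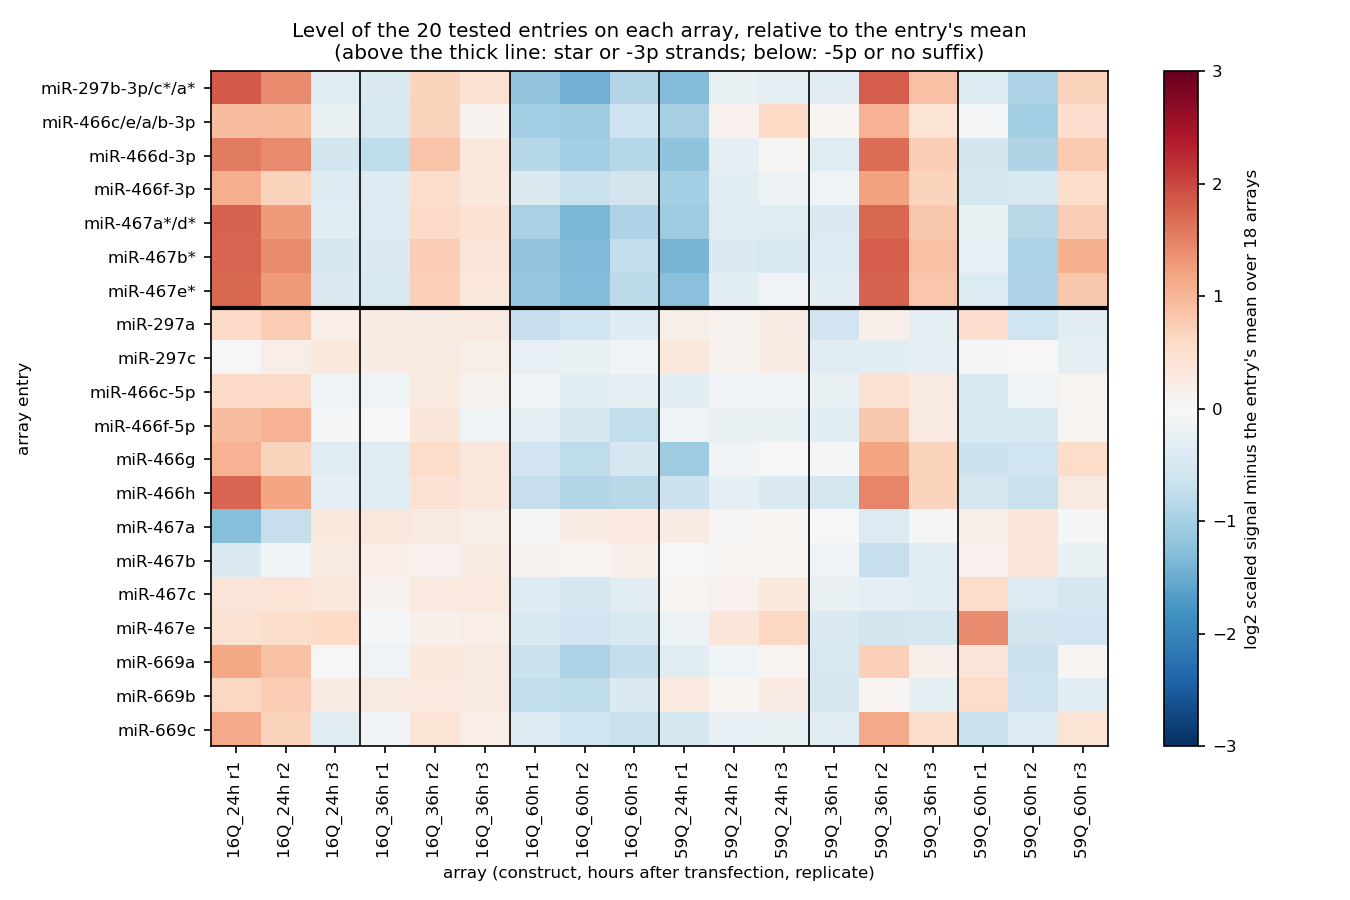
Log2 scaled signal of the 20 tested entries (rows) on the 18 arrays (columns, by construct, hours and replicate), each minus the entry's mean over the arrays; red is above and blue below the mean. The 7 star or -3p strands above the thick line are reddest on 16Q replicates 1 and 2 at 24 h and 59Q replicate 2 at 36 h, and miR-467a is lowest on 16Q replicate 1 at 24 h.

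miR-467a*/miR-467d*, the joint entry for the star strands of miR-467a and miR-467d, shows the pattern of the star strands. In 16Q cells its log2 signal was 0.48, -0.0013 and -1.62 on the 3 arrays at 24 h, -1.70, -0.72 and -0.85 at 36 h, and -2.25, -2.66 and -2.22 at 60 h. In 59Q cells it was -2.36, -1.65 and -1.64 at 24 h, -1.72, 0.44 and -0.48 at 36 h, and -1.48, -2.11 and -0.55 at 60 h. The arrays of 16Q at 24 h and of 59Q at 36 h spread most widely, and all 3 arrays of 16Q at 60 h were low.

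miR-297b-3p/miR-297c*/miR-297a*, the 3′ strands of the miR-297 hairpins, gave -0.43, -0.86 and -2.61 under 16Q at 24 h, -2.72, -1.60 and -1.81 at 36 h, and -3.46, -3.72 and -3.16 at 60 h. In 59Q it gave -3.57, -2.50 and -2.56 at 24 h, -2.62, -0.46 and -1.40 at 36 h, and -2.69, -3.21 and -1.57 at 60 h. Its 60 h values in 16Q lay below every other 16Q array, and its 59Q groups overlapped each other. miR-466c-3p/miR-466e-3p/miR-466a-3p/miR-466b-3p was at -1.67, -1.65 and -2.82 under 16Q at 24 h, -3.05, -1.91 and -2.49 at 36 h and -3.63, -3.66 and -3.23 at 60 h, and in 59Q at -3.59, -2.48 and -1.9997, then -2.54, -1.55 and -2.20, then -2.66, -3.62 and -2.09. On 1 array of 16Q at 60 h this entry was not well above background.

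The entries without a suffix fell into different patterns. miR-466h, known from hamster cells as a pro-apoptotic miRNA under glucose deprivation, followed the star strands: in 16Q it was at -1.19, -1.76 and -3.23 at 24 h, -3.30, -2.51 and -2.61 at 36 h, and -3.63, -3.82 and -3.77 at 60 h. In 59Q it was at -3.58, -3.22 and -3.37 at 24 h, -3.48, -1.48 and -2.27 at 36 h, and -3.47, -3.62 and -2.67 at 60 h. The groups 16Q at 24 h and 59Q at 36 h again held its 2 widest spreads.

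miR-297a, miR-467c and miR-669b had a smaller SD than miR-467a*/miR-467d* in each of the 6 groups. miR-297a was at -1.37, -1.20 and -1.75 under 16Q at 24 h, -1.72, -1.71 and -1.68 at 36 h, and -2.64, -2.55 and -2.34 at 60 h, and in 59Q at -1.77, -1.85 and -1.73, then -2.52, -1.80 and -2.24, then -1.45, -2.55 and -2.27. miR-669b was at -1.47, -1.33 and -1.83 under 16Q at 24 h, -1.83, -1.79 and -1.83 at 36 h, and -2.81, -2.84 and -2.52 at 60 h, and in 59Q at -1.79, -2.03 and -1.84, then -2.58, -2.04 and -2.35, then -1.54, -2.70 and -2.43. In both entries 16Q at 60 h lay below all other 16Q arrays, and 59Q replicate 1 at 60 h stood above the other 60 h arrays. miR-467c was at -2.69, -2.68 and -2.73 under 16Q at 24 h, -2.97, -2.78 and -2.79 at 36 h, and -3.45, -3.57 and -3.39 at 60 h, and in 59Q at -2.9994, -2.94 and -2.77, then -3.30, -3.34 and -3.40, then -2.53, -3.49 and -3.58. Its levels on the second slide (16Q at 60 h and 59Q at 36 h) were close to each other, and 16Q replicate 3 at 36 h and 59Q replicate 1 at 60 h, also on that slide, were higher.

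miR-467a and miR-467b ran against their star strands. miR-467a was at -1.75, -1.16 and -0.16 in 16Q at 24 h and between -0.88 and -0.11 on the other 15 arrays, so its 2 lowest values came from 16Q replicates 1 and 2 at 24 h, where its star strand was high. miR-467b, which targets lipoprotein lipase in mouse macrophages, was lowest on 59Q replicate 2 at 36 h (-0.23). In a test for any difference among the 6 groups (limma's moderated F), none of the 20 entries passed an adjusted p of 0.05, where 3.1% of the 226 did. The smallest p among them was that of miR-669b (unadjusted 0.00864, limma adjusted p = 0.112), and 10 entries were at an unadjusted p under 0.05, where 26.1% of the 226 were.

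**Figure D2:**
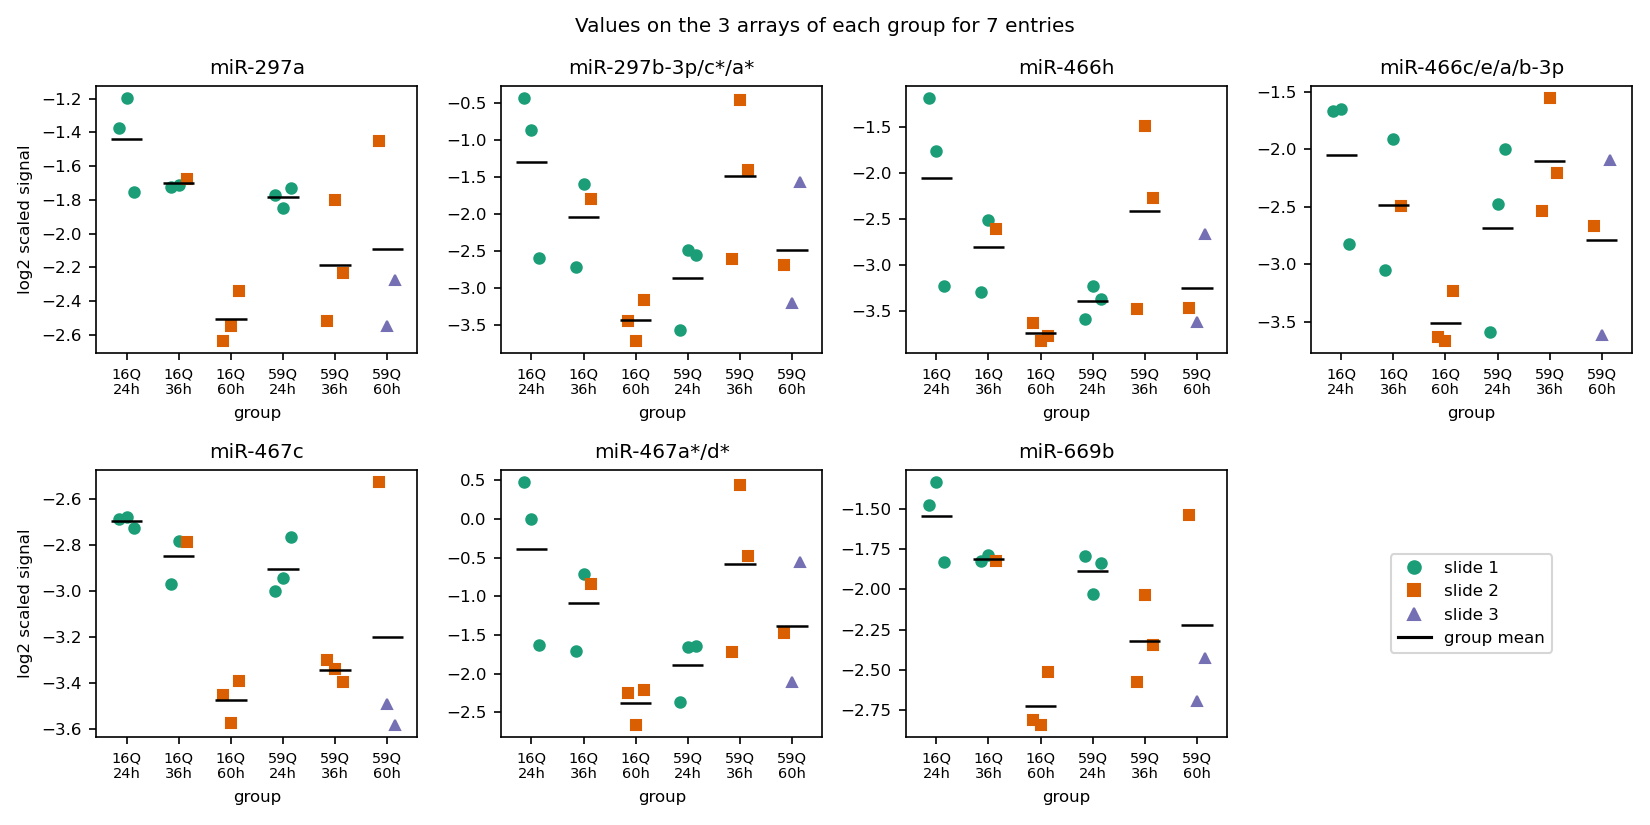
Log2 scaled signal on the 3 arrays of each group (points, by slide) with the group mean (line) for the entry with the smallest F-test p in each family and strand class. In all 7 panels the 16Q arrays at 60 h lie below the other 16Q arrays, and for miR-297b-3p/miR-297c*/miR-297a* and miR-467a*/miR-467d* 16Q at 24 h and 59Q at 36 h spread most widely.

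The comparison of 59Q with 16Q asks whether the expanded tract changes miRNA levels. At 24 h the cluster entries were on balance lower in 59Q, and no entry passed. Its median over the 20 was -0.81 log2 units, with 17 lower and 3 higher, beside a median of 0.25 over the 226 entries, of which 0.442% passed. The 7 star or -3p strands were all lower (median -1.41, from -1.65 to -0.64), and the 13 others had a median of -0.34, with 10 lower. By p, the leading entries were miR-466h (log2 difference -1.33, SE 0.50), miR-467a*/miR-467d* (-1.50, SE 0.57) and miR-297b-3p/miR-297c*/miR-297a* (-1.57, SE 0.60), each with limma adjusted p = 0.192, and 8 of the 20 were at an unadjusted p under 0.05, where 20.4% of the 226 were. By family, all 7 miR-466 entries (median -0.84) and all 3 miR-669 entries (median -0.80) were lower, 5 of 7 miR-467 entries were (median -0.25), and miR-467a was higher by 0.66 (SE 0.31).

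For 4 of the 20 (20%), the 59Q arrays at 24 h lay below every 16Q array, namely miR-466c-5p, miR-466f-5p, miR-467a*/miR-467d* and miR-467c, against 3.98% of the 226, and for 0 they lay above, against 6.19%. With only 16Q replicate 3 kept at 24 h, the median difference was -0.12 (-0.12 for the star or -3p strands), and without replicate 1 alone it was -0.53. Without 16Q replicate 3 instead, 12 of the 20 passed, where 22.1% of the 226 did. On 16Q replicates 1 and 2 at 24 h the median of the 23 small-RNA control probes was 0.62 and 0.70, against 1.81 to 3.29 on the other 24 h arrays, and its part in the result was not tested.

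At 36 h the direction differed by strand and by family. All 7 star or -3p strands were higher in 59Q (median 0.53, from 0.39 to 0.57) and 8 of the 13 others were lower (median -0.42). No entry passed in limma, where 0.442% of the 226 did. All 7 miR-466 entries were higher (median 0.39), the 4 without a star or -3p in the name included (median 0.28). Of these 4, miR-466g and miR-466h have no suffix, so their strand is not given. In the other families, 3 of 7 miR-467, 1 of 3 miR-297 and 1 of 3 miR-669 entries were higher. The difference between the strand classes was not tested. The overall median was 0.21 (12 higher, 8 lower), beside -0.19 over all entries, and its sign turned without 59Q replicate 2 at 36 h (-0.07, 7 higher, 13 lower) and with normexp background correction (-0.07, 7 higher, 13 lower). The smallest p belonged to entries without a suffix: miR-297c (log2 difference -0.52, SE 0.19, limma adjusted p = 0.247), miR-467b (-0.55, SE 0.24, limma adjusted p = 0.281) and miR-467c (-0.50, SE 0.25, limma adjusted p = 0.377). miR-297c was at -2.21, -2.16 and -2.25 in 16Q and -2.73, -2.75 and -2.69 in 59Q, so the groups did not overlap. Of its 3 tested probes, 2 were higher and 0 lower for 59Q versus 16Q at 60 h, with a smallest difference of exactly 0. The same held for 60 h versus 36 h under 59Q. A probe at the floor in both groups gives such a 0 and narrows the spread, and its part in the result was not tested.

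In 7 of the 20 entries (35%) the 59Q arrays at 36 h lay below every 16Q array, against 22.6% of the 226. They were miR-297a, miR-297c, miR-467a, miR-467b, miR-467c, miR-467e and miR-669b, and none was named as a star or -3p strand. Without scaling between arrays, as in the deposited log2 table, the differences of miR-297c (0.08 and 0.06), miR-467b (0.24 and 0.21) and miR-467c (0.26 and 0.15) were above 0, where the median of all entries moved to 0.47 and 0.31. Without the 4 arrays that stood apart, 59Q replicate 2 at 36 h among them, the star or -3p median at 36 h was 0.05. The 59Q arrays at 36 h all lay on the second slide with 16Q replicate 3, and within that slide the median over the 20 was 0.22.

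At 60 h the direction was the reverse of that at 24 h, and again no entry passed, where 0.442% of the 226 did. The median log2 difference was 0.45, with 19 higher and miR-467b at -0.02, beside 0.06 over all entries. The star or -3p strands had a median of 0.91 (from 0.39 to 1.02) and the others of 0.33. First in order of p came miR-669a (0.71, SE 0.35), which targets the MyoD transcript in mouse progenitor cells, miR-669b (0.50, SE 0.28) and miR-467a*/miR-467d* (0.996, SE 0.57), each with limma adjusted p = 0.947, and 0 of the 20 were at an unadjusted p under 0.05.

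miR-669a was at -1.53, -1.82 and -1.60 in 16Q and at -0.49, -1.51 and -0.80 in 59Q at 60 h. It, miR-466h and miR-467a*/miR-467d* were the 3 entries (15%, against 2.21% of the 226) whose 59Q arrays at 60 h all lay above the 16Q arrays. Within the second slide, where only 59Q replicate 1 stands against the 16Q arrays, the median was 0.52, and with slide as a block 4 entries passed, where 21.7% of the 226 did. The median over the 20 was 0.28 without 59Q replicate 3 at 60 h and -0.0091 with normexp background correction.

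**Figure D3:**
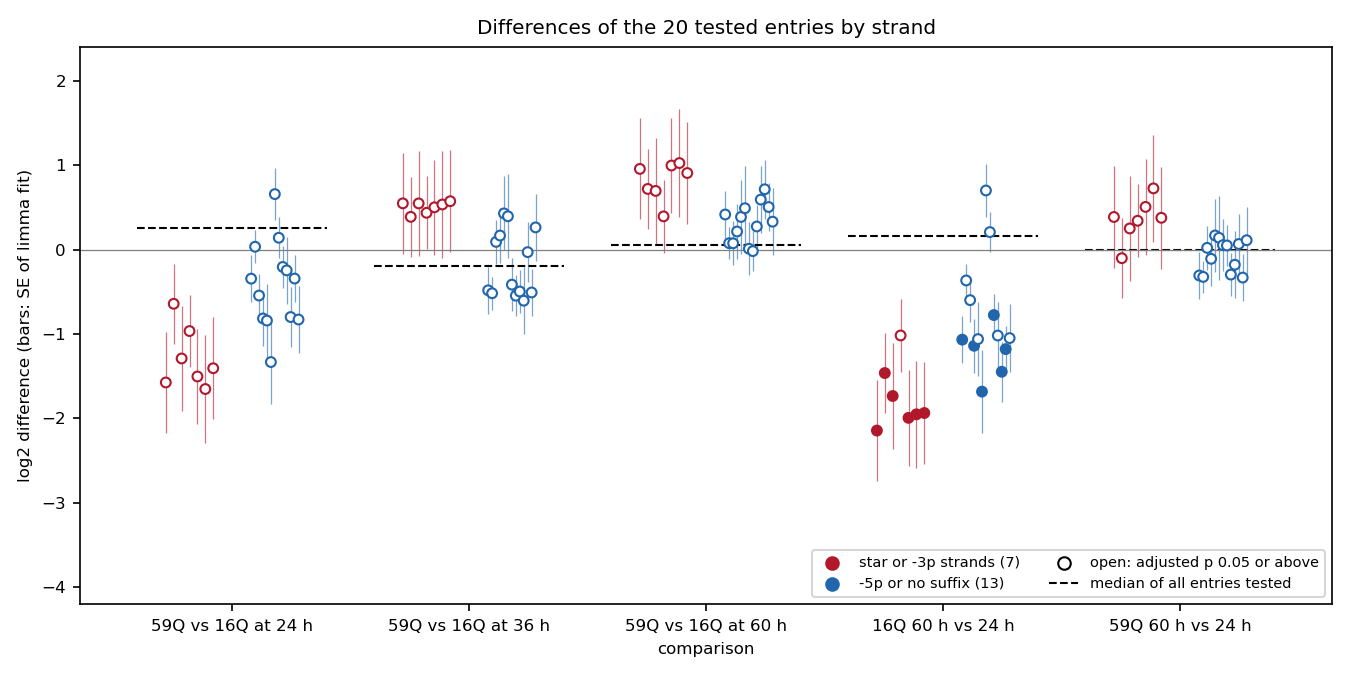
Log2 differences of the 20 tested entries in 5 comparisons, with limma's SE as bars; red points are the 7 star or -3p strands, blue points the 13 others, filled where the adjusted p is under 0.05, and the dashed line is the median of all 226 tested entries. The red points lie below 0 at 24 h and above 0 at 36 and 60 h, and filled points occur only for 16Q at 60 h versus 24 h.

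Averaged over the 3 times, the median difference was -0.06, with either sign when single arrays were left out (-0.19 to 0.05), and 0 of the 20 passed or were at an unadjusted p under 0.05, where 0.442% of the 226 passed. Lowest in p were miR-297c (-0.14, SE 0.11), miR-467b (-0.14, SE 0.14) and miR-467c (-0.14, SE 0.14), each with limma adjusted p = 0.999. The sign of miR-467b turned without scaling (0.068) and also in the deposited log2 values (0.063), and that of miR-467c in that table (0.01) and with slide as a block (0.06).

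The dependence of this difference on time has a test of its own. In limma's F test over the times none of the 20 passed, nor did any of the 226 (0%), and in order of p the first were miR-467a*/miR-467d* (unadjusted 0.0153), miR-297b-3p/miR-297c*/miR-297a* (unadjusted 0.0186) and miR-467b* (unadjusted 0.0198), each with limma adjusted p = 0.215. From 24 to 60 h the 59Q minus 16Q difference moved up by 2.499 (SE 0.80) for miR-467a*/miR-467d*, 1.51 (SE 0.50) for miR-669a and 2.53 (SE 0.85) for miR-297b-3p/miR-297c*/miR-297a*, each with limma adjusted p = 0.174, so these were not past the threshold. The median of this change was 1.19 over the 20 (18 above 0) and -0.21 over all entries, of which 0% passed, and 10 of the 20 were at an unadjusted p under 0.05, where 24.3% of the 226 were. It was 0.53 without 16Q replicates 1 and 2 at 24 h, and without 16Q replicate 3 at 24 h, 11 of the 20 passed in this change and 7 in the F test, where 20.8% and 13.3% of the 226 did.

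Calls were found in 1 comparison, 60 h versus 24 h under 16Q. There 12 of the 20 entries (60%) fell and 0 rose, where 10.2% of the 226 fell and 35.4% changed in either direction. The falls ran from 1.71-fold to 4.42-fold (limma adjusted p from 0.00928 to 0.0414). They took in 6 of the 7 star or -3p strands (median log2 change -1.94 over the 7) and 6 of the 13 others (median -1.05), and by family 2 of 3 miR-297, 4 of 7 miR-466, 4 of 7 miR-467 and 2 of 3 miR-669 entries. The largest were those of miR-297b-3p/miR-297c*/miR-297a* (log2 -2.14, 4.42-fold lower, SE 0.60, limma adjusted p = 0.0183), miR-467a*/miR-467d* (3.98-fold lower, log2 -1.99, SE 0.57, limma adjusted p = 0.0185), miR-467b* (3.87-fold lower, log2 -1.95, SE 0.63, limma adjusted p = 0.0279), miR-467e* (3.83-fold lower, log2 -1.94, SE 0.60, limma adjusted p = 0.0248) and miR-466d-3p (3.33-fold lower, log2 -1.73, SE 0.62, limma adjusted p = 0.0414). miR-466d-3p was well above background on 1 of the 3 arrays at 60 h.

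The other falls past the threshold were those of miR-297a, miR-466c-3p/miR-466e-3p/miR-466a-3p/miR-466b-3p, miR-466f-5p, miR-466h, miR-467c, miR-669a and miR-669b. No 16Q array at 60 h had miR-466f-5p well above background (means of -2.60 at 24 h and -3.74 at 60 h), and its level was at least 1.69-fold lower there, measured against the lowest signal among probes above background on those arrays. miR-467a was at a log2 change of 0.70 (SE 0.31) and miR-467b at 0.21 (SE 0.24), neither past the threshold, opposite in sign to their star strands. In 18 of the 20 entries (90%) every 60 h array lay below every 24 h array, against 20.4% of the 226, and in 0 above, against 31.9%. The median over all entries was 0.16.

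These calls depended on single arrays and on the processing. The count was 1 without 16Q replicate 1 at 24 h, 0 without replicate 2 there and 17 without replicate 3 there, where 13, 6 and 99 of all 226 entries passed in place of 80. It was 3 without 16Q replicate 1 at 60 h and 0 without replicate 2 there, where 19 and 7 of the 226 passed. Without 16Q replicates 1 and 2 at 24 h together the median was -0.53 over the 20, -0.65 over the star or -3p strands and -0.15 over all entries, and 0 passed. All 24 h arrays lay on the first slide and all 16Q arrays at 60 h on the second, and with slide as a block 0 passed.

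The 2 intervals of time under 16Q were also tested apart. From 24 to 36 h the median of the 20 was -0.37 and none passed (0% of the 226), the smallest p being those of miR-467a (0.81, SE 0.31, limma adjusted p = 0.309), miR-466f-5p (-0.56, SE 0.32, limma adjusted p = 0.572) and miR-466h (-0.75, SE 0.50, limma adjusted p = 0.64). Without 16Q replicates 1 and 2 at 24 h these values were -0.06, 0.12 and 0.42 and the median was 0.25. From 36 to 60 h the log2 changes of all 20 were below 0 (median -0.80, beside -0.01 over all entries), and in 17 (85%, against 24.8% of the 226) the 60 h arrays lay below every 36 h array. None passed, where 0.442% of the 226 did, and 8 were at an unadjusted p under 0.05, where 12.4% of the 226 were. Leading by p were miR-669b (-0.91, SE 0.28, limma adjusted p = 0.248), miR-297a (-0.80, SE 0.28, limma adjusted p = 0.29) and miR-669a (-0.94, SE 0.35, limma adjusted p = 0.346). 16Q replicates 1 and 2 at 36 h lay on the first slide, and replicate 3 and all 16Q arrays at 60 h on the second. The log2 changes here are taken between 36 h and 60 h arrays only. The SE and p of the test use the spread within all 6 groups, the 24 h arrays included. Without 59Q replicate 1 at 60 h, which only lends its spread to this test, 3 passed, where 4.87% of the 226 did, and with only the 6 arrays compared 11 did, where 15% of the 226 did.

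Under 59Q no entry passed in any interval. From 24 to 60 h the median was 0.06, beside -0.01 over all entries, and none passed, where 1.33% of the 226 did. The smallest p were those of miR-297c (-0.32, SE 0.19, limma adjusted p = 0.839), miR-669b (-0.33, SE 0.28, limma adjusted p = 0.871) and miR-467c (-0.30, SE 0.25, limma adjusted p = 0.871). Each of these 3 turned above 0 in the deposited log2 table (0.09, 0.20 and 0.19). The median of the 20 was -0.11 without 59Q replicate 3 at 60 h and -0.05 without replicate 1 at 24 h. Without 59Q replicate 1 at 60 h, 2 of the 20 passed, where 7.96% of the 226 did.

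From 24 to 36 h under 59Q the median was 0.51, with 13 higher, beside -0.26 over all entries, and none passed, where 0% of the 226 did. All 7 star or -3p strands were higher (median 1.30) and 7 of the 13 others were lower (median -0.27). Entries with the lowest p were miR-297c (-0.51, SE 0.19, limma adjusted p = 0.129), miR-466f-3p (1.08, SE 0.43, limma adjusted p = 0.143) and miR-467b* (1.54, SE 0.63, limma adjusted p = 0.149). In 6 entries without a suffix, miR-297c, miR-467a, miR-467b, miR-467c, miR-467e and miR-669b (30%, against 24.8% of the 226), every 36 h array lay below every 24 h array. In 2 entries, miR-466f-3p and miR-467b* (10%, against 5.75%), every one lay above. Without 59Q replicate 1 at 36 h, 8 of the 20 passed, where 27.9% of the 226 did, and without replicate 2 there the median was 0.26. From 36 to 60 h the median was -0.60 (-0.27 without 59Q replicate 2 at 36 h) and none passed, where 0.885% of the 226 did. In 0 entries every 60 h array lay above every 36 h array, against 6.19% of the 226. In order of p, the first were miR-467b (0.46, SE 0.24), miR-466g (-0.83, SE 0.44) at limma adjusted p = 0.32 and miR-466f-3p (-0.74, SE 0.43) at limma adjusted p = 0.334.

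For 7 pairs of entries, both strands of a hairpin were tested, so the star or -3p signal could be set against its partner on the same array, which removes any factor common to both. This ratio was added after the values had been seen. The pairs were miR-297a and miR-297c, each with the joint miR-297 3′ entry, miR-466c, miR-466f, miR-467a, miR-467b and miR-467e. At 24 h the log2 ratio was lower in 59Q for all 7 (median -1.23), and at 36 and 60 h it was higher for all 7 (medians 1.03 and 0.64), without a call in limma over the 26 hairpins of the array with both strands tested, of which 0% passed at each time. The medians over all 26 hairpins had the same signs (-0.28, 0.40 and 0.17). The 2 miR-297 ratios share their numerator and are not separate measurements of it. The joint entries set against miR-297a, miR-297c, miR-466c-5p and miR-467a also name strands of other hairpins. Those ratios are thus not ratios within a single hairpin. The largest difference at 24 h was that of miR-467a*/miR-467d* over miR-467a (-2.16, SE 0.82, limma adjusted p = 0.166), and miR-466c (-0.10, SE 0.40) and miR-466f (-0.15, SE 0.30) differed least.

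From 24 to 60 h under 16Q the ratio fell past the threshold for 3 of the 7 and rose past it for 0. Of all 26 hairpins, these 7 included, 53.8% changed in either direction. The 3 that fell were miR-467a (log2 change -2.69, SE 0.82, limma adjusted p = 0.0161), miR-297c (-1.78, SE 0.68, limma adjusted p = 0.0354) and miR-467b (-2.16, SE 0.81, limma adjusted p = 0.0354). That of miR-466f was 0.12 (SE 0.30), with a log2 change of -1.02 (SE 0.43) for miR-466f-3p and -1.14 (SE 0.32) for miR-466f-5p. At 60 h under 16Q miR-466f-5p was well above background on 0 of 3 arrays and miR-467e on 1 of 3. The ratio changes of these 2 hairpins are thus poorly measured. The share of cluster hairpins with a changed ratio was thus not above that of all hairpins, and 0 passed without 16Q replicate 1 or without replicate 2 at 24 h.

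The array pattern of the star or -3p strands was also seen outside the 4 families. miR-574-3p was at 1.36, 1.08 and -0.24 under 16Q at 24 h, -0.16, 0.88 and 0.52 at 36 h, and -0.46, -0.68 and -0.36 at 60 h, and in 59Q at -0.86, -0.17 and -0.08, then -0.05, 1.56 and 0.96, then -0.24, -0.46 and 0.98. miR-466g gave 1.32, 0.95 and -0.08, then -0.07, 0.82 and 0.63, then -0.30, -0.47 and -0.22 in 16Q, and -0.78, 0.19 and 0.27, then 0.25, 1.47 and 0.95, then -0.36, -0.31 and 0.84 in 59Q. The 2 entries share no family number, and their highest values came from the same arrays. The log2 difference of miR-574-3p was -1.10 at 24 h (SE 0.49, limma adjusted p = 0.206) and its change from 24 to 60 h under 16Q was -1.24 (SE 0.49, limma adjusted p = 0.0575), neither past the threshold.

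miR-574-5p, the G- and U-rich arm of the same hairpin, was between 0.90 and 1.58 on 17 arrays and at -0.02 on 59Q replicate 1 at 60 h, and its change from 24 to 60 h under 16Q was 0.24 (SE 0.31). The 20 star strands of other miRNAs had medians of 0.41, 0.10 and -0.08 for 59Q minus 16Q at 24, 36 and 60 h, and of 0.72 from 24 to 60 h under 16Q, where 7 rose and 2 fell past the threshold. They ran from -1.97 to 1.24 at 24 h and from -2.17 to 2.41 for the change under 16Q, and their difference from the cluster's star strands was not tested. The small-RNA control probes were lowest on the 3 arrays where the cluster's star strands were highest (0.62, 0.70 and 0.61 log2 scaled signal on 16Q replicates 1 and 2 at 24 h and 59Q replicate 2 at 36 h), and their part in the result was not tested.

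**Figure D4:**
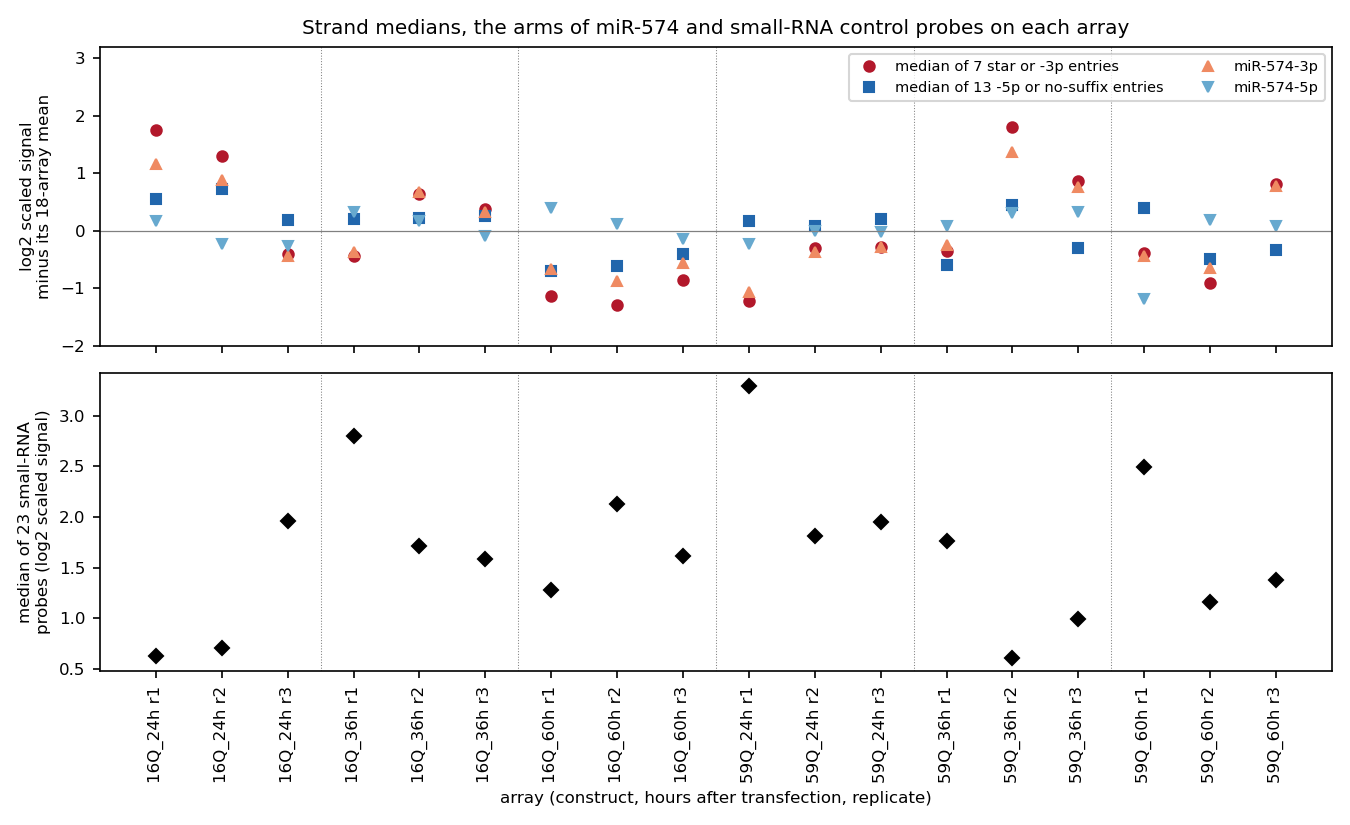
Upper panel: the median of the 7 star or -3p strands, the median of the 13 other entries, miR-574-3p and miR-574-5p on each array, as log2 scaled signal minus the mean over 18 arrays. Lower panel: median log2 scaled signal of 23 small-RNA control probes on the same arrays, which is lowest on the 3 arrays where the star or -3p median and miR-574-3p are highest.

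Different probes of an entry mostly gave the same sign. Of the 19 entries with several tested probes, 1, 2 and 2 had probes of opposite sign for 59Q versus 16Q at 24, 36 and 60 h, 0 had them for 60 h versus 24 h under 16Q and 5 under 59Q. The mature sequences of these families differ by few bases, so a probe may report relatives of the named miRNA, and how far it did so was not tested.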

How the data were processed

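Per the file headers, the authors' scanner files were written by Agilent Feature Extraction 9.5.1.1 and give the intensity of every spot. Their processed signal is background-subtracted, with no scaling between arrays. The deposited series table holds log2 values, which equal log2 of the net intensity of each spot without scaling. It was used only as an alternative. Names are those of the array design. The processed signal was averaged over spots without an outlier mark per probe, divided by each array's 75th percentile over the 290 probes above background on all 18 arrays, floored at 0.0581 and taken to log2. A probe was above background where at least 50% of its spots were marked so by the scanner software. An entry is the mean of its probes above background on all 3 arrays of a group. Scaling sets the level of the cluster against the other miRNAs, so a difference is relative to them.

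R 4.3.3 with limma 3.58.1 (lmFit, eBayes) gave 1 fit of 6 group means over 226 entries with 12 residual degrees of freedom; p-values were adjusted after Benjamini and Hochberg and called at 0.05, checked on simulated data. The members and lists were chosen with earlier results of these data known. Strands were taken from the entry names, since hairpin positions of the members were not used here. Named were, per comparison, the entries past the threshold with the largest changes (up to 5 each way), or else the 3 with the smallest p, the entry with the smallest F-test p per family and strand array by array, all hairpins with both strands tested, and miR-574. miR-467a, miR-467b, miR-466g, miR-297c and miR-669a were chosen for array values after these had been seen. The main fit treated the samples as unpaired. Deviations from the group mean of arrays with the same replicate number correlated from -0.51 to 0.67, and 4 of 9 pairs were over 0.1. Replicate 2 gave 0.38, 0.67 and 0.63 at 24, 36 and 60 h, and replicate 3 was negative at each time. Such deviations sum to 0 within a group, so this check cannot decide whether the samples are paired. Alternatives were normexp background correction (offset 50), no scaling, quantile normalization, a percentile taken over all probes, other filters, the brightest probe, the deposited table, a floor 4 times higher, slide or replicate number as a block, only the arrays compared, and arrays left out.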

Additional observations from a re-analysis of the deposited data

How the results depend on the processing

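The fall of the star or -3p strands from 24 to 60 h under 16Q kept its direction under all scalings tried and without the arrays that stood apart. The number of calls changed with the setting. In place of 12 entries past the threshold (80 among all entries), 0 passed with normexp background correction (3 among all) and 0 with slide as a block (0). The count was 2 with the deposited log2 table (5 among all), 4 with a floor 4 times higher (26) and 5 with no filter (27). It was 10 with only the probes above background on all 18 arrays (58 among all), 13 with a percentile over all probes (83) and 14 with the brightest probe (73). With quantile normalization it was 16 (82 among all), with only the arrays compared 16 (98) and with no scaling 18 (41). Most other counts in this section lack the share over all entries, those of strand ratios and those with each array left out in turn included. They describe the setting, not the cluster. The median of the members for that change was -0.39 with normexp, -1.99 with no scaling, -0.56 with the higher floor and -0.53 without the 4 arrays or without the 2 arrays of 16Q. The causes of these shifts were not tested. In the slide block only 16Q at 36 h links the 24 h arrays to the second slide. Signal over background limits the dim entries, since 5 of 25 could not be tested and miR-467e and miR-466d-3p were near the floor in several groups.

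For 59Q versus 16Q at 24 h the median was -0.30 with normexp, -1.50 with no scaling, -0.36 with the higher floor and -0.12 without the 4 arrays or the 2 arrays of 16Q. At 36 h it was 0.997 with no scaling and turned from 0.21 to -0.070 with normexp and -0.075 without the 4 arrays, and 1 entry passed with no filter and 1 with the higher floor. In the unscaled values at 36 h, then the deposited table, miR-297c was at 0.084 and 0.060, miR-467b at 0.24 and 0.21 and miR-467c at 0.26 and 0.15. At 60 h the median was -0.0091 with normexp and 0.95 with no scaling, miR-669b was at -0.018 with normexp, and 4 entries passed with slide as a block. For the average over the times the median turned from -0.062 to 0.15 with no scaling, 0.056 in the deposited table, 0.075 without the 4 arrays and 0.19 without the 2 arrays of 16Q, miR-467b was at 0.068 unscaled and at 0.063 in the deposited table, and miR-467c at 0.014 in that table and 0.061 with slide as a block. For the dependence on time 1 entry passed with the higher floor and 4 with slide as a block. For the change of the difference from 24 to 60 h, 5 passed with slide as a block, and the median was 0.23 with normexp, 2.35 with no scaling, 0.49 with the higher floor, 0.53 without the 4 arrays and 0.53 without the 2 arrays of 16Q.

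For 36 h versus 24 h under 16Q the median was -1.16 with no scaling, -0.82 in the deposited table and 0.25 without the 4 arrays or the 2 arrays of 16Q, and miR-467a was at -0.039, -0.023 and -0.059. Without the 4 arrays or the 2 arrays miR-466f-5p was at 0.12 and miR-466h at 0.42. For 60 h versus 36 h under 16Q, 1 entry passed with the higher floor, 11 with only the arrays compared and 4 without the 4 arrays, and the median was -0.25 with normexp, -0.23 in the deposited table and -0.33 with the higher floor. For 36 h versus 24 h under 59Q, 1 entry passed with no filter and 1 with the higher floor, and the median was 0.077 with normexp and 1.06 with no scaling. For 60 h versus 36 h under 59Q, 2 passed with slide as a block, and the median was -0.17 with normexp and -0.18 without the 4 arrays. For 60 h versus 24 h under 59Q, 4 passed without the 4 arrays, the median turned from 0.059 to -0.028 with normexp, miR-297c was at 0.095 in the deposited table, miR-669b at 0.013 with no scaling, 0.20 in that table and 0.37 with slide as a block, and miR-467c at 0.19, 0.017 with the higher floor and 0.29 with slide as a block.

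The number of strand ratios past the threshold, 3 of 7 for 60 h versus 24 h under 16Q, was 0 with normexp, slide as a block, without the 4 arrays and without the 2 arrays of 16Q, 1 with the deposited table and with the higher floor, and 5 with the brightest probe. It was 3 for 60 h versus 36 h under 16Q with only the arrays compared and 1 for 60 h versus 36 h under 59Q with slide as a block. With only the probes above background on all 18 arrays it was 3 for the dependence on time, 4 for the change of the difference and 2 for 36 h versus 24 h under 59Q.

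With replicate number as a block, 12 entries passed for 60 h versus 24 h under 16Q (68 among all entries) and 0 in the other comparisons. For 60 h versus 24 h under 16Q, 1 strand ratio passed in place of 3. The block changed no other count.

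With each array left out in turn, the count of entries past the threshold ran from 0 to 12 for 59Q versus 16Q at 24 h, 0 to 7 for the dependence on time, 0 to 11 for the change of the difference, 0 to 1 for 16Q 36 h versus 24 h, 0 to 3 for 16Q 60 h versus 36 h, 0 to 17 for 16Q 60 h versus 24 h, 0 to 8 for 59Q 36 h versus 24 h and 0 to 2 for 59Q 60 h versus 24 h, and was 0 in the other comparisons. The median ran from -1.15 to -0.53 for 59Q versus 16Q at 24 h, -0.07 to 0.53 at 36 h, 0.28 to 0.66 at 60 h, -0.19 to 0.05 averaged over the times and 0.91 to 1.61 for the change of the difference. Under 16Q it ran from -0.74 to -0.23 for 36 h versus 24 h, -0.95 to -0.66 for 60 h versus 36 h and -1.47 to -0.99 for 60 h versus 24 h, and under 59Q from 0.26 to 0.76, -0.86 to -0.27 and -0.11 to 0.26 for the same intervals. The count of strand ratios ran from 0 to 4 for 59Q versus 16Q at 24 h, the dependence on time, the change of the difference, 16Q 60 h versus 24 h and 59Q 36 h versus 24 h, and from 0 to 1 for 16Q 36 h versus 24 h.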
